A study of Rattus norvegicus with 24 samples.

Results

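Aminoacyl-tRNA synthetases join each amino acid to its transfer RNA and so supply the ribosome. Their genes were followed in sandwich-cultured primary rat hepatocytes, liver cells kept between layers of collagen, after exposure to 4 piperazine designer drugs. A gene was included if its symbol was 1 capital letter followed by "ars", with an optional 1, 2, a, b or l, or if it was Eprs1, Aimp1, Aimp2 or Eef1e1. This gave 35 of the 14217 genes with a probe set of their own, namely 19 cytosolic synthetases, 13 mitochondrial synthetases and 3 scaffold proteins. Gars1 and Kars1, which serve both compartments, were counted as cytosolic. Lars2, Mars2 and Pars2 were not analysed here, since none had a probe set assigned to it alone.

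The cells were incubated for 24 h after seeding and then for 24 h with 1 drug, each at its EC20 per the labels. The drugs were BZP (benzylpiperazine) at 625 µM, TFMPP (trifluoromethylphenylpiperazine) at 35 µM, MeOPP (methoxyphenylpiperazine) at 522 µM and MDBP (methylenedioxybenzylpiperazine) at 467 µM. The ring bears a benzyl group in BZP and MDBP and is joined directly to a phenyl group in TFMPP and MeOPP. Treated samples numbered 3 per drug, and the labels name for each its own control with 0.1% DMSO, which gave 8 groups of 3 and 12 pairs. No label tells if replicates are different animals or different dishes; p-values therefore reflect only the spread among these samples, some of which may be technical.

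The cytosolic enzymes charge the tRNAs that read nuclear messages in the cytosol. Several of them sit in the multisynthetase complex, which the scaffold proteins Aimp1, Aimp2 and Eef1e1 hold together. A separate set, encoded by other nuclear genes, is imported into mitochondria and charges the mitochondrial tRNAs. When uncharged tRNA builds up, the kinase GCN2 is activated and the transcription factor ATF4 is made, and ATF4 binds the C/EBP-ATF response element. Many cytosolic synthetase genes are known ATF4 targets.

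The letters TGATGNAA, the core of that element, were searched on both strands of the promoter windows of RefSeq (build GRCr8), each running from 250 bases before to 50 bases after the gene start. The table held 33 of the 35 genes, without Gars1 and Rars1. The letters were present in 7 of 17 cytosolic windows (41.2%), in 0 of 13 mitochondrial windows and in 0 of 3 scaffold windows, against 3.98% of all 33469 windows. In each of the 7 at least 1 match read TGATGCAA on either strand, which 0.795% of all windows held. The stretches below show, for 4 of the genes, where the letters lie and what surrounds them; the matched letters themselves are alike by the search. They are written 5′ to 3′ on the strand of the gene, with the match in capitals; TTGCATCA is TGATGCAA on the opposite strand.
Tars1 (chr2:62114803-62114862, minus strand): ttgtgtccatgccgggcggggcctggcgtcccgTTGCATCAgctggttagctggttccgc
Iars1 (chr17:15193653-15193712, minus strand): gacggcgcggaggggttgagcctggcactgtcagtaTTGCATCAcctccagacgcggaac
Mars1 (chr7:65023754-65023813, minus strand): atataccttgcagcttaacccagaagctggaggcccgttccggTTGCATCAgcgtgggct
Cars1 (chr1:208225334-208225363, minus strand): cggcgccgcggTTGCATCAgattctggaaa

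The first 3 stretches end at the base before the gene start, and the match begins 27 bases before the start in Tars1, 24 in Iars1 and 17 in Mars1. In Cars1 the match lies after the start. The start is the one used by the RefSeq promoter table, which in Iars1, Mars1 and Cars1 lies inside the annotated gene, so the bases before it there are not all upstream of that gene. Nars1 and Yars1 were also among the 7. Sars1 and Wars1 had no match, which says only that these letters are not in this window. A match is a description of the sequence; whether a factor bound there was not measured.

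Array medians on the log2 scale ran from 4.448 to 4.519. The 12 DMSO arrays fell into 5 sets by their correlations, which the labels do not name and which are called preparations here. The first pairs of all drugs made up preparation 1. Of the second pairs, that of MDBP stood alone as preparation 5 and the others formed preparation 2. Of the third pairs, those with BZP and MDBP formed preparation 3 and those with TFMPP and MeOPP preparation 4. Hepatocyte markers were strongly expressed, and 11 of 12 listed were measured, with a median log2 signal of 13.10 in DMSO. Their summed log2 signal ran from 134.6 to 139.8 in DMSO and from 130.9 to 137.6 after treatment. Their median change was -0.22 and lay below 0 in all 12 pairs. Markers of Kupffer cells (11 of 12 measured), stellate cells (11 of 11), endothelium (7 of 9) and cholangiocytes (6 of 7) changed by medians of -0.11, 0.01, -0.03 and -0.02. The part of these shifts in the results was not tested, and fewer cells of a type cannot be told apart from less RNA per cell.

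Averaged over the 4 drugs, 9 of 19 cytosolic synthetases and all 3 scaffold genes rose, while among the 13 mitochondrial synthetases Yars2 rose and Cars2 fell. These calls were made in limma with Benjamini-Hochberg adjustment over all probe sets (adjusted p under 0.05), and 0 of the 19 cytosolic genes fell. At an unadjusted p under 0.05, 14 of the 19 were higher and 0 lower. Of all 14217 genes, 3481 were higher and 2315 lower at that threshold. The median change of the 19 was 0.17 on the log2 scale, against 0.01 for all genes. Among all genes, 18% rose and 11.9% fell in this comparison. Among the 4903 genes whose mean signal lay within the range of the cytosolic synthetases, 30.7% rose and the median change was 0.07.

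**Figure D1:**
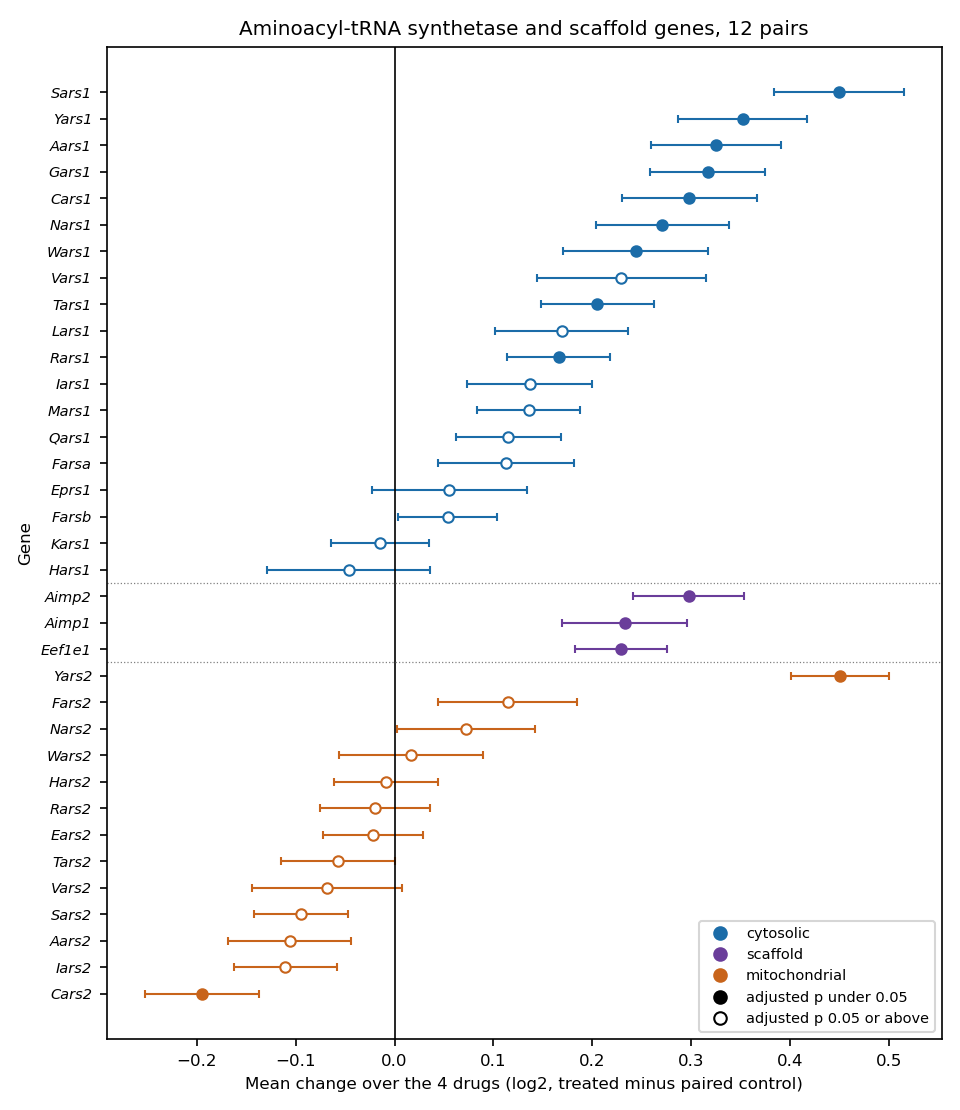
Mean change of each synthetase and scaffold gene over the 4 drugs, as treated minus paired control on the log2 scale; points are the fitted means of 12 pairs and bars are ± 1 SE. Filled points passed an adjusted p of 0.05. The 9 filled cytosolic points and the 3 scaffold points lie to the right of 0, and the mitochondrial points other than Yars2 lie between -0.19 and 0.11.

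Sars1, the seryl-tRNA synthetase, had the largest change of the cytosolic genes. Its log2 signal was 10.12, 9.33 and 9.29 in the BZP controls and 10.36, 10.13 and 10.14 in their treated partners. In the MDBP pairs it was 10.06, 9.38 and 9.20 in the controls and 10.31, 9.99 and 10.06 after treatment. With BZP all treated samples lay above all controls, while with MDBP the groups overlapped, the first control being as high as a treated sample. In the TFMPP pairs the controls stood at 10.16, 9.58 and 10.37 and the treated samples at 10.37, 9.63 and 10.67. In the MeOPP pairs the controls stood at 10.05, 9.49 and 10.39 and the treated samples at 10.62, 9.97 and 10.56. Both of these drugs had overlapping groups, and the second pair was the lowest on either side. Sars1 was higher in 12 of 12 pairs, with a mean log2 rise of 0.45 ± 0.07 (SE, n = 12 pairs; 1.37-fold; limma adjusted p = 0.000101).

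Yars1, the tyrosyl-tRNA synthetase, was likewise higher in every pair. Its controls for BZP stood at 9.19, 8.62 and 8.94 and the treated samples at 9.25, 9.29 and 9.41. With MDBP the controls stood at 9.03, 8.87 and 8.75 and the treated samples at 9.11, 9.23 and 9.42. All treated samples lay above all controls in both of these drugs. With TFMPP the controls stood at 9.09, 8.73 and 9.31 and the treated samples at 9.33, 8.80 and 9.62. With MeOPP they stood at 9.10, 8.54 and 9.29 and at 9.56, 9.20 and 9.46. Here the groups overlapped. The mean rise was 0.35 ± 0.07 (SE, n = 12 pairs; 1.28-fold; limma adjusted p = 0.000839).

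Aars1, the alanyl-tRNA synthetase, was higher in 11 of 12 pairs. Its signal with BZP was 10.56, 9.85 and 10.38 in the controls and 10.64, 10.66 and 10.70 after treatment, so that the treated samples lay together above controls that were spread. With TFMPP the controls stood at 10.53, 10.05 and 10.46 and the treated samples at 10.46, 10.26 and 10.82. The first of these pairs was the only one in which Aars1 was lower. With MeOPP the controls stood at 10.09, 10.00 and 10.64 and the treated samples at 10.73, 10.44 and 10.76, and with MDBP at 10.04, 10.34 and 10.16 and at 10.30, 10.64 and 10.61. The groups overlapped in the last 3 drugs. The mean rise was 0.32 ± 0.07 (SE, n = 12 pairs; 1.25-fold; limma adjusted p = 0.00165).

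The other 6 cytosolic genes that rose were the synthetases for glycine, cysteine, asparagine, tryptophan, threonine and arginine. Gars1 rose by 0.32 ± 0.06, with pair changes from 0.03 to 0.70 and all 12 pairs higher (limma adjusted p = 0.000728). Cars1 rose by 0.30 ± 0.07 and was higher in 9 of 12 pairs, and 3 of its 4 probe sets were called higher. Nars1 rose by 0.27 ± 0.07 and Tars1 by 0.20 ± 0.06, each in 11 of 12 pairs. Wars1 rose by 0.24 ± 0.07 (adjusted p = 0.0235), but its pair changes ran from -0.34 in the third MeOPP pair to 0.85 in the third BZP pair. Rars1 had the smallest called rise, 0.17 ± 0.05 (adjusted p = 0.03). The calls of Wars1 and Rars1 were each lost when any 1 of 6 pairs was left out, the second TFMPP pair, the first and second MeOPP pairs and the third BZP and MDBP pairs in both, the second MDBP pair for Wars1 and the first TFMPP pair for Rars1. Without 1 pair their adjusted p went up to 0.0665 and 0.0775. Without preparation 3 both calls and that of Tars1 were lost (adjusted p = 0.138, 0.151 and 0.0854). The pairs share preparations, and with 1 value per preparation the calls of Nars1, Tars1, Wars1 and Rars1 were lost (adjusted p = 0.0834, 0.0738, 0.16 and 0.155).

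The remaining 10 cytosolic genes did not pass the adjusted test. Vars1, Lars1, Mars1, Iars1 and Qars1, for valine, leucine, methionine, isoleucine and glutamine, had changes of 0.23, 0.17, 0.14, 0.14 and 0.12, all with an unadjusted p under 0.05. Vars1 had an SE of 0.09 and pair changes from -0.10 to 1.06. Its adjusted p was 0.0672, and it fell to 0.0269 at the lowest when 1 pair was left out, with a call without the first or the third BZP pair. Lars1 passed without the first BZP or the first MDBP pair, and Mars1 without the first MDBP pair. The second, dimmer probe set of Mars1 was called higher (0.18 ± 0.06, limma adjusted p = 0.04). Mars1 also passed with its probe sets averaged, and both Mars1 and Vars1 passed with only a mean log2 of at least 5. Farsa and Farsb, the subunits of the phenylalanine enzyme, stood at 0.11 and 0.05, and Eprs1, for glutamate and proline, at 0.06. Kars1, for lysine, stood at -0.02 and Hars1, for histidine, at -0.05, the 2 cytosolic estimates below 0. Both crossed 0 when the third MeOPP pair was left out (0.01 and 0.02), as did Eprs1 without the third BZP pair (-0.01). Hars1 varied most between pairs, from -0.76 to 0.58, and its second probe set also stood at -0.05. Hars1 and Hars2 lie head to head on opposite strands in GRCr8 with 97 bases between them, and Hars2 stood at -0.01.

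The rise was counted in 1 of the 7 enzymes of the multisynthetase complex and in 8 of the 12 cytosolic enzymes outside it. Among all genes 18% rose, and 30.7% of those in the signal range of the cytosolic synthetases. The count of 1 of 7 is near the share of all genes. Rars1 was the called enzyme of the complex, and the others were Eprs1, Iars1, Kars1, Lars1, Mars1 and Qars1. The median change was 0.14 inside and 0.26 outside the complex, and this difference was not tested. Of the structural classes of synthetase, 4 of 9 class I and 5 of 9 class II cytosolic genes rose, against the same 18% and 30.7%. Eprs1 joins an enzyme of each class and was left out of this count. All 9 class I estimates were above 0, from 0.12 to 0.35.

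All 3 scaffold genes rose, against 28.1% of the 320 genes in their signal range. Aimp2, which bridges the parts of the complex, rose by 0.30 ± 0.06 in 12 of 12 pairs (SE; limma adjusted p = 0.00095). Aimp1, a tRNA-binding scaffold protein that is also secreted as a cytokine, rose by 0.23 ± 0.06 in 11 of 12 pairs (limma adjusted p = 0.013), and both of its probe sets were called. Eef1e1, the smallest of the scaffold proteins, rose by 0.23 ± 0.05 in 12 of 12 pairs (limma adjusted p = 0.0017), with pair changes from 0.07 to 0.45. Aimp1 lost its call without preparation 3, a setting chosen after the data were seen (adjusted p = 0.0706), and with 1 value per preparation (adjusted p = 0.058).

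Among mitochondrial synthetases 1 of 13 rose and 1 fell, against 17.8% higher and 11.3% lower among the 9787 genes in their signal range. The gene that rose was Yars2, the mitochondrial tyrosyl-tRNA synthetase. With BZP its log2 signal was 8.53, 7.64 and 7.83 in the controls and 9.07, 8.28 and 8.51 after treatment. With TFMPP it was 8.57, 7.57 and 8.12 in the controls and 8.74, 7.97 and 8.35 after treatment. Both drugs had overlapping groups, with the first pair high and the second low in controls and treated samples alike. With MeOPP the controls stood at 8.53, 7.69 and 8.23 and the treated samples at 8.90, 8.46 and 8.55, and with MDBP at 8.54, 7.99 and 8.16 and at 8.85, 8.49 and 8.64. These groups overlapped too, but each treated sample exceeded its own control by 0.31 to 0.77. Yars2 rose by 0.45 ± 0.05 (SE, n = 12 pairs; 1.37-fold; limma adjusted p = 5.87e-06). Its estimate equalled that of Sars1 to 2 decimals, and the cytosolic enzyme for the same amino acid, Yars1, rose as well.

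Cars2, the mitochondrial cysteinyl-tRNA synthetase, was the mitochondrial gene that fell. Its signal was low, with 4.86, 4.75 and 5.40 in the BZP controls and 4.84, 4.66 and 4.98 after treatment. The MDBP controls stood at 4.95, 4.79 and 5.65 and the treated samples at 4.70, 4.58 and 5.02. In both drugs the third control was the highest sample and held the largest fall. The TFMPP controls stood at 5.11, 4.69 and 4.80 and the treated samples at 4.78, 4.70 and 4.64, and the MeOPP controls at 4.73, 4.73 and 4.83 and the treated samples at 4.73, 4.42 and 4.91. Cars2 fell by 0.19 ± 0.06 (SE; adjusted p = 0.0228) and was lower in 9 of 12 pairs. The call was lost when the third BZP, the first TFMPP, the second MeOPP or the third MDBP pair was left out (adjusted p up to 0.0653) and without preparation 3 (adjusted p = 0.133).

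**Figure D2:**
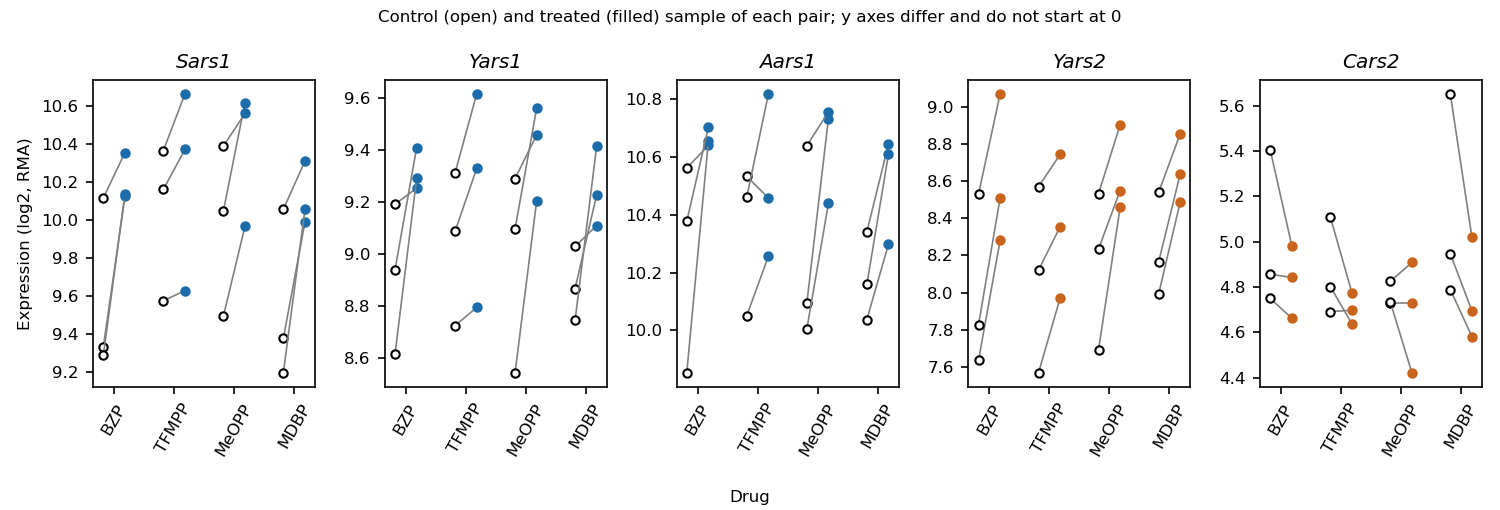
Log2 signal of the 3 cytosolic and 2 mitochondrial genes with the largest mean change, in the control (open) and treated (filled) sample of each pair, by drug; lines join the pairs and the y axes differ and do not start at 0. The lines of Sars1, Yars1 and Yars2 rise in all 12 pairs, while those of Cars2 fall in 9.

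The other 11 mitochondrial genes lay between -0.11 and 0.11, and 0 passed the test in either direction, nor did any reach an unadjusted p under 0.05. Iars2 was lower in 10 of 12 pairs with a change of -0.11 ± 0.05 (limma adjusted p = 0.155), and Sars2 stood at -0.09, Aars2 at -0.11, Vars2 at -0.07 and Tars2 at -0.06. Fars2 stood at 0.11 and Nars2 at 0.07. A mean log2 signal under 5 was found for 5 of the 13 (Aars2, Cars2, Nars2, Vars2 and Wars2). Among the 8 above that level, Yars2 was the only call. For amino acids measured in both compartments, the cytosolic gene rose and its mitochondrial partner did not pass the test for serine, alanine, asparagine, tryptophan, threonine and arginine.

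**Figure D3:**
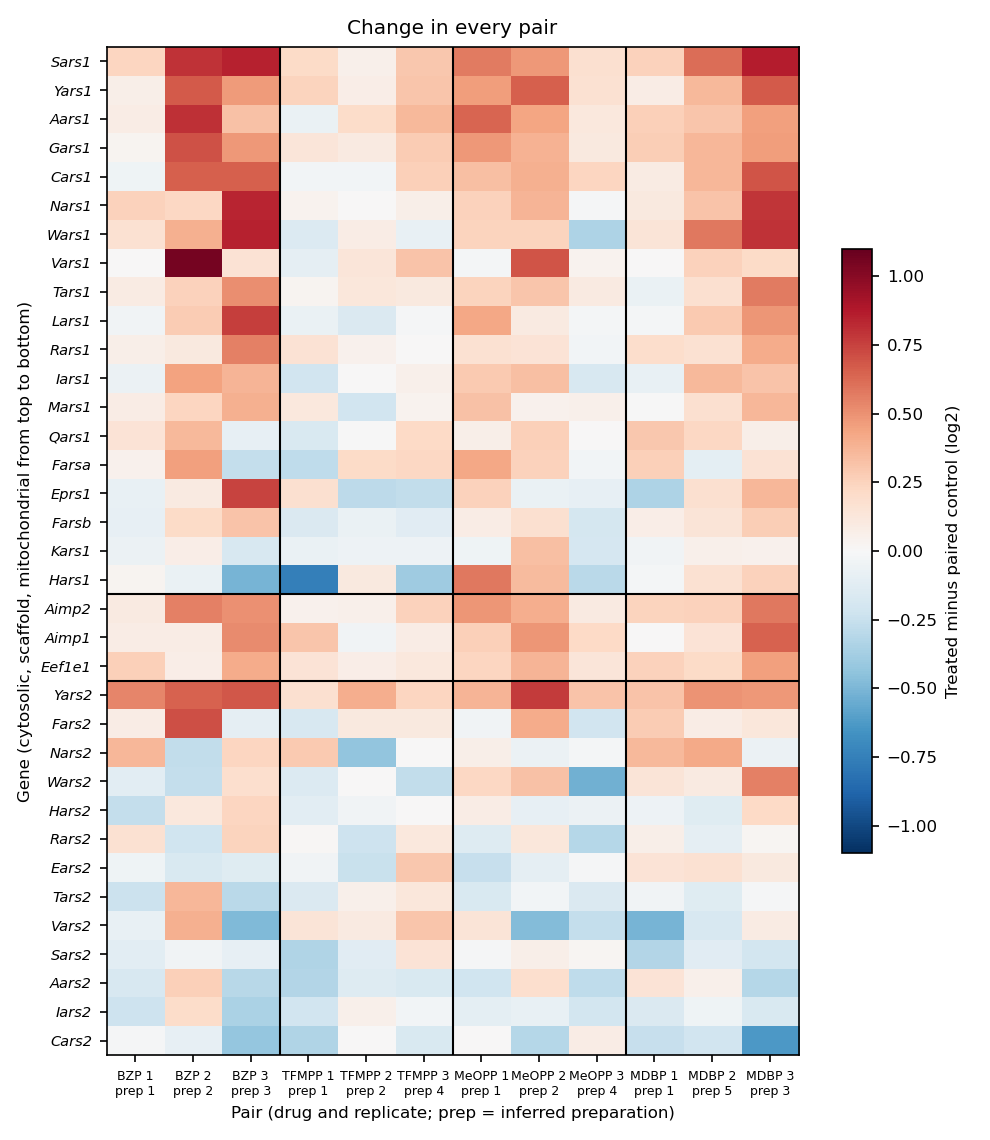
Change of each gene (rows) in each of the 12 pairs (columns), as treated minus paired control on the log2 scale, with red for higher and blue for lower; lines part the gene groups and the drugs, and the inferred preparation stands under each pair. The medians of the cytosolic and of the scaffold rows are largest in the third BZP and the third MDBP pairs, and Yars2 is red in all 12 columns. Of the 19 cytosolic rows, 18 are red in the second BZP pair, 15 in the third BZP pair and 19 in the third MDBP pair.

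The split between compartments was also visible pair by pair. The median change of the 19 cytosolic genes minus that of the 13 mitochondrial genes averaged 0.21 ± 0.18 (SD, 12 pairs) and was above 0 in 11 of 12 pairs, from -0.04 in the third TFMPP pair to 0.57 in the third BZP pair. The averages by drug were 0.31 (BZP), 0.03 (TFMPP), 0.27 (MeOPP) and 0.23 (MDBP). By preparation it averaged 0.13, 0.22, 0.48, 0.05 and 0.30 for preparations 1 to 5. The cytosolic median alone was 0.09, 0.25, 0.44, 0.02 and 0.25, so preparation 3, which holds no TFMPP or MeOPP pair, had the largest value and preparation 4, which holds no BZP or MDBP pair, the smallest. Within preparation 1, which holds all 4 drugs, it was 0.05 (BZP), -0.07 (TFMPP), 0.29 (MeOPP) and 0.08 (MDBP). Without preparation 3 the difference between compartments was 0.16. All genes in the signal range of the cytosolic synthetases had a median change of 0.07, and those in the mitochondrial range 0.01. The part of signal level in the difference between compartments was not tested.

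**Figure D4:**
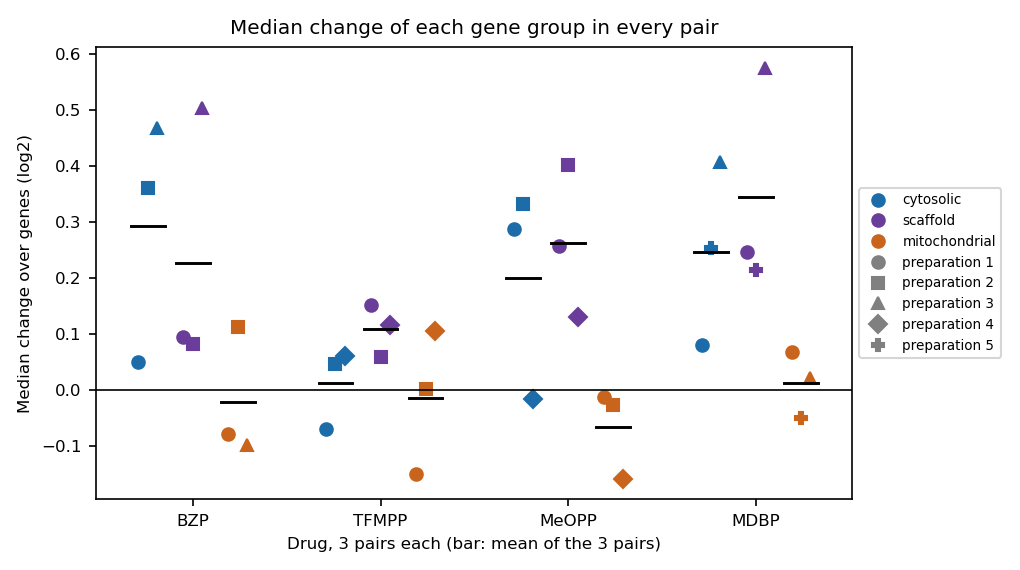
Median change of the cytosolic, scaffold and mitochondrial genes in each pair, by drug, with the marker shape giving the inferred preparation and the bar the mean of 3 pairs; the y axis is treated minus paired control on the log2 scale. Cytosolic and scaffold medians reach 0.47 and 0.58 in the pairs of preparation 3, and the mitochondrial medians stay between -0.16 and 0.11.

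Few genes passed the test with single drugs, whose doses differed. With BZP 4 of the 35 genes rose, Sars1 (0.63 ± 0.13, adjusted p = 0.00655), Yars2 (0.62 ± 0.10, adjusted p = 0.000816), Gars1 (0.40 ± 0.12, adjusted p = 0.0389) and Aimp2 (0.38 ± 0.11, adjusted p = 0.0421), in limma with n = 3 pairs. With MDBP 3 rose, Sars1 (0.58 ± 0.13, adjusted p = 0.0139), Wars1 (0.51 ± 0.15, adjusted p = 0.0477) and Yars2 (0.43 ± 0.10, adjusted p = 0.0152). With MeOPP 1 rose, Yars2 (0.48 ± 0.10, adjusted p = 0.00756). With TFMPP 0 rose, and at an unadjusted p under 0.05 there was 1 higher, Yars2 at 0.27 ± 0.10. With each drug 0 fell, and at an unadjusted p under 0.05 there were 2 lower with MDBP and 0 with the others. Of all 14217 genes, 1100 were higher with TFMPP at that threshold. Those lower numbered 1678 (BZP), 1002 (TFMPP), 1380 (MeOPP) and 1552 (MDBP). Among all genes, limma called 6.66% higher and 5.96% lower in the BZP comparison. The same shares were 0.872% and 1.71% for TFMPP, 3.45% and 4.52% for MeOPP, and 4.68% and 5.05% for MDBP.

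The median change of the cytosolic genes was 0.29 (BZP), 0.03 (TFMPP), 0.20 (MeOPP) and 0.22 (MDBP). At an unadjusted p under 0.05, 12, 0, 5 and 8 of the 19 were higher and 0 were lower. Of all 14217 genes, 2342, 1100, 1796 and 2037 were higher at that threshold. All 19 estimates were above 0 with MeOPP and with MDBP, 17 with BZP and 11 with TFMPP. All treated samples lay above all controls for 5 cytosolic genes with BZP (Aars1, Gars1, Sars1, Wars1 and Yars1), 4 with MDBP (Cars1, Gars1, Wars1 and Yars1), 3 with MeOPP (Gars1, Qars1 and Tars1) and 0 with TFMPP, where Lars1 lay below. Among all genes, the treated samples lay above all controls for 6.19% with BZP, 8.29% with MDBP, 7.99% with MeOPP and 4.14% with TFMPP, and below for 4.28% with TFMPP. Gars1 was the gene that separated the groups in 3 drugs. The counts by drug rested on single pairs. With BZP, 9 genes were called without the first BZP pair, 7 without the third MDBP pair, 2 without any 1 TFMPP pair or the second MDBP pair, and 1 without the second or the third BZP pair. With MDBP, 0 were called without the second or the third MDBP pair and 5 without the third BZP pair, and with MeOPP 0 without the second MeOPP pair and 2 without the first or second BZP pair.

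None of the 35 genes differed between drugs in the 6 differences tested by limma, adjusted over all probe sets or over the 6 differences together. Among all genes, 0.0914% differed between BZP and TFMPP and 0% in each of the other 5 differences. At an unadjusted p under 0.05, 5 members differed between BZP and TFMPP (Lars1, Nars1, Sars1, Wars1 and Yars2), 1 between TFMPP and MeOPP (Hars1), 1 between TFMPP and MDBP and 1 between MeOPP and MDBP (Wars1 in both), and 0 in the other 2. At that threshold, 530 of all 14217 genes were higher and 523 lower in BZP minus TFMPP. The same counts were 396 and 384 in TFMPP minus MeOPP and 532 and 477 in TFMPP minus MDBP. In MeOPP minus MDBP they were 396 and 233, in BZP minus MeOPP 454 and 517, and in BZP minus MDBP 229 and 233. Set against all genes in the same difference, 1 of 35 members was a smaller share and 5 of 35 a larger one. These shares were not compared by a test. The lowest adjusted p of a member was 0.682, for Wars1 between TFMPP and MDBP. BZP exceeded TFMPP by 0.44 for Sars1, with a 95% interval from 0.04 to 0.84, and by 0.35 for Yars2, from 0.05 to 0.65. Between the benzyl compounds BZP and MDBP the difference for Sars1 was 0.05, with an interval from -0.35 to 0.45. For the phenyl compounds, TFMPP minus MeOPP was -0.22 for Sars1, from -0.61 to 0.18. These intervals include differences as large as the changes themselves. The third pairs of BZP and MDBP were in preparation 3 and those of TFMPP and MeOPP in preparation 4. Sars1 rose by 0.85 and 0.24 in these preparations, so in the third pairs compound and preparation cannot be told apart.

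Other genes of tRNA charging and translation are read against the 18% of all genes that rose and the 11.9% that fell. Their lists were chosen with earlier results of these data known, so the shares only describe them. A list of 13 editing and auxiliary genes includes some that proofread charged tRNA or make special aminoacyl-tRNAs. The synthetase gene Tars3, whose symbol lies outside the inclusion rule, is counted there too (change 0.06, not called). Of these 13 genes, 0 rose and 2 fell in the mean of the drugs. The share that fell is near that of all genes. At an unadjusted p under 0.05, 2 of the 13 were higher and 3 lower, against 3481 and 2315 of all 14217 genes. Both genes that fell act in making selenocysteinyl-tRNA. Sepsecs, the enzyme of the last step, fell by 0.35 ± 0.05 in 12 of 12 pairs (limma adjusted p = 3.92e-05). Its change was -0.40 (BZP), -0.23 (TFMPP), -0.34 (MeOPP) and -0.41 (MDBP), as fitted for each drug. Pstk, the kinase of the step before, fell by 0.23 ± 0.06 in 10 of 12 pairs (limma adjusted p = 0.0156).

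Of 20 cytosolic initiation and elongation factors, 8 rose and 0 fell, with a median of 0.12, against 18% of all genes that rose. Among genes in the signal range of the cytosolic synthetases 30.7% rose, but that range ended at a mean log2 of 10.54. The 3 factors named next lay above it (10.73, 11.15 and 11.27), and no share was taken for the range of these factors. Eif4ebp1, which restrains cap-dependent initiation and is an ATF4 target, rose by 0.40 ± 0.04 in 12 of 12 pairs (limma adjusted p = 7.19e-06). Eef1d, an exchange factor of the elongation factor that carries charged tRNA, rose by 0.31 ± 0.05, and Eif2s2, a subunit of the initiation factor that GCN2 acts on, by 0.26 ± 0.07. Of 8 mitochondrial translation factors, 2 rose and 0 fell, Mrrf, the ribosome recycling factor, by 0.22 ± 0.04 and Mtrf1l, a release factor, by 0.20 ± 0.04. The median of those 8 was 0.05, and 2 of 8 is near the 18% of all genes.

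Of 34 other genes of the amino acid response, 16 rose and 3 fell, with a median of 0.27, against 18% and 11.9% of all genes. This list too was chosen with earlier results of these data known, so its share is a description and not a test. Psat1, of serine synthesis, rose by 0.87 ± 0.16 and Mthfd2, of mitochondrial one-carbon metabolism, by 0.80 ± 0.13, each in 11 of 12 pairs. Cbs, which commits homocysteine to cysteine synthesis, fell by 0.87 ± 0.06 in 12 of 12 pairs (limma adjusted p = 7.81e-08). The others that fell were Cth, which releases cysteine from cystathionine (-0.68 ± 0.06), and Cebpb, a transcription factor (-0.20 ± 0.05). Also called were Atf4 (0.37 ± 0.07), Asns, the asparagine synthetase (0.74 ± 0.12), and Eif2ak4, which encodes GCN2 (0.34 ± 0.05), 3 of the 16 that rose, chosen, like Cth and Cebpb, after their values were seen. Asns changed on average by 0.46, 0.57, 1.77, 0.27 and 1.19 in preparations 1 to 5, with pairs from -0.17 in the second TFMPP pair to 1.83 in the third MDBP pair. Atf4 was higher in 12 of 12 pairs, as were Sars1, Yars1 and Gars1. The size of the changes differed, since the largest synthetase rise, 0.45, was below that of Asns.

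Set against the promoter letters given above, 5 of the 7 cytosolic genes in the table that rose held TGATGNAA, among them Cars1, Nars1, Tars1 and Yars1, and 2 of the 10 that did not pass the test did (Iars1 and Mars1). Among genes with a probe set, 2.22% of 13192 windows held it. Yars2 rose in all 12 pairs and had no match in its window, and neither had the 3 scaffold genes.

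Of the 9 cytosolic rises, 1 was called without the pair terms, 4 with the DMSO arrays as 1 group and 5 with 1 value per preparation, and the 3 scaffold rises became 0, 0 and 2. Leaving out any 1 pair kept the cytosolic count between 7 and 11.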

How the data were processed

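Total RNA of 24 samples (QIAzol; 100 ng labelled) was hybridised to Affymetrix arrays, per the labels' protocols. The deposited table holds log2 values made with RMA, per the submitters' processing notes. The RMA version is not given in these sources. Quantile normalization within RMA removes shifts common to all genes. Of 31099 probe sets, 57 controls were left out and 31042 tested. In the platform annotation 20826 had 1 symbol, 436 had several and 9780 had none, and a gene took its probe set with the highest mean.

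All arrays entered 1 limma 3.58.1 model (R 4.3.3) with 12 pair and 4 drug terms (8 residual and 7.66 prior degrees of freedom), tested on simulated data. P-values were two-sided and Benjamini-Hochberg adjusted over all probe sets; adjusted p under 0.05 was a call. Pairs came from the labels; treated and own control arrays deviated together from their group means (correlations 0.612 to 0.802). Preparations were sets of DMSO arrays correlated at 0.9943 or above, against at most 0.9919 between sets. A further promoter stretch is not reported here. The members and lists were chosen with earlier results of these data known. Named genes were the 3 cytosolic or scaffold and 2 mitochondrial genes with the largest change, and up to 3 called genes per pathway list by size.

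Alternatives dropped the pair terms, joined the DMSO arrays, normalized again, averaged probe sets, left out dim ones, changed the empirical Bayes fit, used only 1 drug's arrays, took 1 value per preparation or left out each pair. Arrays carry no read depth, and their number limits the precision.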

Additional observations from a re-analysis of the deposited data

How the results depend on the processing

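None of the synthetase and scaffold genes called in the mean of the 4 drugs changed direction under any alternative run. Calls by single drug were followed by count only, and genes of the other lists were not followed. The estimates of Eprs1, Hars1 and Kars1, near 0 and not called, crossed 0 in 2 settings each. Pairing mattered most: with no replicate block, that is without the pair terms, 1 cytosolic gene was higher in the mean, 0 mitochondrial were higher or lower, 0 scaffold were higher, and 0 genes were higher with BZP, MeOPP or MDBP. With no block and the DMSO arrays as 1 group, 4 cytosolic were higher, 0 mitochondrial were lower, 0 scaffold were higher, and 0 were higher with BZP, MeOPP or MDBP. With 1 value per preparation, 5 cytosolic genes were higher and 0 mitochondrial lower. Without preparation 3, added after the data were seen, 0 mitochondrial genes were lower, 1 was higher with BZP and 0 with MDBP, and 6 cytosolic were higher. With only genes of a mean log2 of at least 5, 9 were higher with BZP, 2 with MeOPP and 6 with MDBP, and 0 mitochondrial were lower. With trend and robust empirical Bayes, 7 were higher with BZP and 5 with MDBP. With only a drug's own arrays, 1 was higher with BZP and 0 with MeOPP, and with probe sets averaged, 2 with MeOPP. Leaving out 1 pair gave 1 to 9 genes higher with BZP, 0 to 2 with MeOPP, 0 to 5 with MDBP and 0 to 2 mitochondrial genes lower. The cytosolic minus mitochondrial difference stayed between 0.16 and 0.23. Gars1 kept its call in all 21 settings (highest adjusted p 0.00783), Yars2 lost it only without the pair terms (0.072), and Sars1 only in both fits without them (up to 0.0906). Dim probe sets limit the mitochondrial values.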
